A study of Mus musculus and Homo sapiens with 22 samples.

Results

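The checkpoint ligands described here were 5 genes in human MDA-MB-231 libraries and 5 in mouse libraries labelled 4T1: PD-L1 (CD274 in human, Cd274 in mouse), PD-L2 (PDCD1LG2, Pdcd1lg2), B7-H3 (CD276, Cd276), PVR (Pvr) and CD47 (Cd47). The human members were picked by ID, 5 of 42713 genes in each MDA-MB-231 table, and the mouse members by symbol, 5 of 38924 genes in each table labelled 4T1. This gave 10 of 81637 gene entries in all.

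RNA was sequenced from MDA-MB-231, a human triple-negative breast cancer line, and from cells labelled 4T1, a mouse mammary carcinoma line, in 22 libraries. Cells grew for 24 h after plating and were then exposed for 24 h to ENMD-2076 or TAK901, both known as inhibitors of Aurora kinases, or to DMSO. MDA-MB-231 had ENMD-2076 at 2.5 and 5 µM, TAK901 at 1 and 2 µM, and DMSO. The libraries labelled 4T1 had ENMD-2076 at 1.25 and 2.5 µM, set against DMSO 1 and 2, and TAK901 at 1 and 2 µM, set against DMSO 3 and 4. Every group held 2 libraries, and the labels do not say whether these came from separate cultures, so each p-value measures the spread between libraries, which may be technical. For 4T1 the doses of ENMD-2076 follow the treatment labels, while the text on cell growth has 1 or 2 µM and the column headers read 10uM.

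Libraries held 13399296 to 23990881 gene reads in MDA-MB-231 and 14418492 to 30866819 in those labelled 4T1, apart from TAK901 at 2 µM with 6004077 and 3746588. The libraries labelled 4T1 fell into 2 sets by file naming, set 1 with ENMD-2076 and DMSO 1 and 2, and set 2 with TAK901 and DMSO 3 and 4. Levels are given as CPM, a gene's reads scaled to a common library size with TMM factors. The 2 sets went against their shared label: 4 Y-linked genes summed to 238 to 253 CPM and 3 endoderm markers to 282 to 340 CPM in set 2, and both sums were 0 in every set 1 library. All TAK901 results in mouse libraries rest on set 2 and all ENMD-2076 results on set 1. Epithelial markers summed to 3045 to 5955 CPM in the 12 libraries, mammary markers to 42.4 to 159 CPM, and fibroblast markers to at most 4.97 CPM. In MDA-MB-231 the 2 libraries of TAK901 at 2 µM differed more from each other (chi-square 59.3 per degree of freedom) than those of the other groups (4.51 to 8.56).

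PD-L1 and PD-L2 on a tumour cell bind PD-1 on T cells and damp their activation. PVR binds the inhibitory receptors TIGIT and CD96 and the activating receptor CD226 on T and NK cells, B7-H3 is a B7 family protein that restrains T cells, and CD47 binds SIRPα on macrophages and holds back phagocytosis. Interferon-gamma is the best known inducer of the PD-L1 gene, through JAK1 and JAK2 and, further down, the transcription factor IRF1. All values here are of transcripts; protein and surface levels were not measured. RNA was pooled over cells, so fewer expressing cells and less RNA per cell cannot be told apart.

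In mouse, Cd274 lies on chromosome 19 (GRCm38, 29367455 to 29388095, plus strand) and Pdcd1lg2 beside it (29410919 to 29471161, plus strand). Cd276 is on chromosome 9 (58524298 to 58555437, minus strand), Pvr on chromosome 7 (19903578 to 19921160, minus strand) and Cd47 on chromosome 16 (49800533 to 49915010, plus strand). The counting strand is not given in the sources used here. Annotated genes on the opposite strand overlap Cd274, Pdcd1lg2, Cd276 and Pvr, so reads of either strand there cannot be told apart. Those overlapping Pvr reached at most 62 and 8 reads in any library, and that overlapping Pdcd1lg2 at most 35. The genes overlapping Cd274 (AC119228.1) and Cd276 (Gm10657) had no entry in the counts, so no bound can be given for them.

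RefSeq promoters on GRCm38.p6, from 250 bases before to 50 after the start, were present for 4 of the 5 mouse members. Shown are those of Cd274, which rose with 2.5 µM ENMD-2076, of Cd47, which fell, and of Pdcd1lg2, the neighbour of Cd274 that was almost without reads. Capitals mark a match to the HIF core ACGTG, which lies on the opposite strand and so reads CACGT. The sequences run 5′ to 3′ on the plus strand at chr19:29367188-29367487, chr16:49855404-49855703 and chr19:29410669-29410968; the RefSeq start of Cd47 lies within the span given above for that gene.
Cd274: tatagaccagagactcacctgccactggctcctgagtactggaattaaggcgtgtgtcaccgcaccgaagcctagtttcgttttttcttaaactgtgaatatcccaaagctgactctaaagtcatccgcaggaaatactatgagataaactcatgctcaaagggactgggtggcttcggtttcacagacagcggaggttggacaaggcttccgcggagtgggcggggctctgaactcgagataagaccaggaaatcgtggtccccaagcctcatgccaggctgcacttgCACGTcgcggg
Cd47: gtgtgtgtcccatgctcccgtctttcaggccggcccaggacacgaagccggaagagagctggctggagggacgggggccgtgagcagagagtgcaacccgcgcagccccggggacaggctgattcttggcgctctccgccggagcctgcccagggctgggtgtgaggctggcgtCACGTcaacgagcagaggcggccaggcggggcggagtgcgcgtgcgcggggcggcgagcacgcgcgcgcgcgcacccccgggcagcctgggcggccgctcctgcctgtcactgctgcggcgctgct
Pdcd1lg2: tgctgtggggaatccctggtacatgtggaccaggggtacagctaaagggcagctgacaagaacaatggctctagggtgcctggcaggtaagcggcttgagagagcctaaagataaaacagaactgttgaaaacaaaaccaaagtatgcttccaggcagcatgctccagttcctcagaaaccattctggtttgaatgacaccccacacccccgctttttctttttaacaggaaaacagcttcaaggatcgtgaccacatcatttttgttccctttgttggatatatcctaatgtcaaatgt
The search covered both strands for an interferon regulatory factor motif (GAAA, any 2 bases, GAAA), a STAT motif (TTC, any 3 bases, GAA), the E-box of MYC (CACGTG), an NF-κB motif (GGG, any 2 bases, TTTCC) and ACGTG, which is contained in CACGTG. All 32851 promoters listed were searched alike, and 3.44% held the interferon regulatory factor motif, 8.30% that of STAT, 7.15% the E-box, 1.63% that of NF-κB and 19.6% ACGTG. The Cd274 window held ACGTG and no match to the other motifs, as did that of Cd47, and the Pdcd1lg2 window held no match. GC content was 52.7% in the Cd274 window, with 15 CG dinucleotides, against 74.0% and 35 in that of Cd47 and 46.0% and 3 in that of Pdcd1lg2; the medians over the table were 52.7% and 7. These matches describe letters in the window and say nothing of binding.

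In MDA-MB-231 cells CD274 and PVR fell with ENMD-2076 at 5 µM and with TAK901 at both doses, while CD276, CD47 and PDCD1LG2 passed the test in no comparison with DMSO. The largest fall was that of CD274 with TAK901 at 2 µM, to 37.8% of DMSO. Members were called at an adjusted p under 0.05 (edgeR's quasi-likelihood test, Benjamini-Hochberg over all 14826 genes tested). With ENMD-2076 at 2.5 µM 0 of the 5 members were called, where 0.607% of all genes were, and DESeq2 also called 0. There CD274 and PVR had an unadjusted p of 0.0107 and 0.0230 in edgeR. The share of all genes with an unadjusted p under 0.05 was not taken, so these 2 cannot be set against it. With ENMD-2076 at 5 µM 2 of 5 were called, against 4.89% of all genes. With TAK901 at 1 µM 2 of 5 were called, against 13.9% of all genes, and at 2 µM again 2 of 5, against 31.2%. All of these calls were of CD274 and PVR and all were falls.

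CD274 stood at 48.8 and 51.2 CPM in DMSO, 36.7 and 39.9 CPM with 2.5 µM ENMD-2076, and 32.2 and 35.5 CPM with 5 µM. With TAK901 it stood at 31.3 and 33.3 CPM at 1 µM and 18.7 and 19.1 CPM at 2 µM. Every treated library lay below both DMSO libraries, and the 2 libraries with 2 µM TAK901 lay below all others. At 5 µM ENMD-2076 CD274 fell by 0.56 on the log2 scale (SE 0.13, adjusted p = 0.0265), while at 2.5 µM the log2 fold change was -0.39 (SE 0.13, adjusted p = 0.245). With TAK901 CD274 fell at 1 µM (log2 fold change -0.63 with an SE of 0.13, adjusted p = 0.00713) and further at 2 µM (-1.40, SE 0.14, adjusted p = 7.25e-06). The 2 µM fall passed in all 16 alternatives, with log2 fold changes from -1.45 to -1.36.

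The fall of CD274 at 5 µM ENMD-2076 missed the threshold when any of 6 libraries was left out: adjusted p was 0.260 and 0.161 without replicate 1 or 2 of that dose, 0.138 and 0.140 without DMSO 1 or 2, and 0.0551 and 0.0549 without 2.5 µM replicate 1 or 2. That at 1 µM TAK901 missed it without DMSO 2 (adjusted p = 0.0576) or TAK901 1 µM replicate 1 (0.0667). Without both 2 µM TAK901 libraries CD274 also passed at 2.5 µM ENMD-2076, with a log2 fold change of -0.39 (adjusted p = 0.0499).

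**Figure D1:**
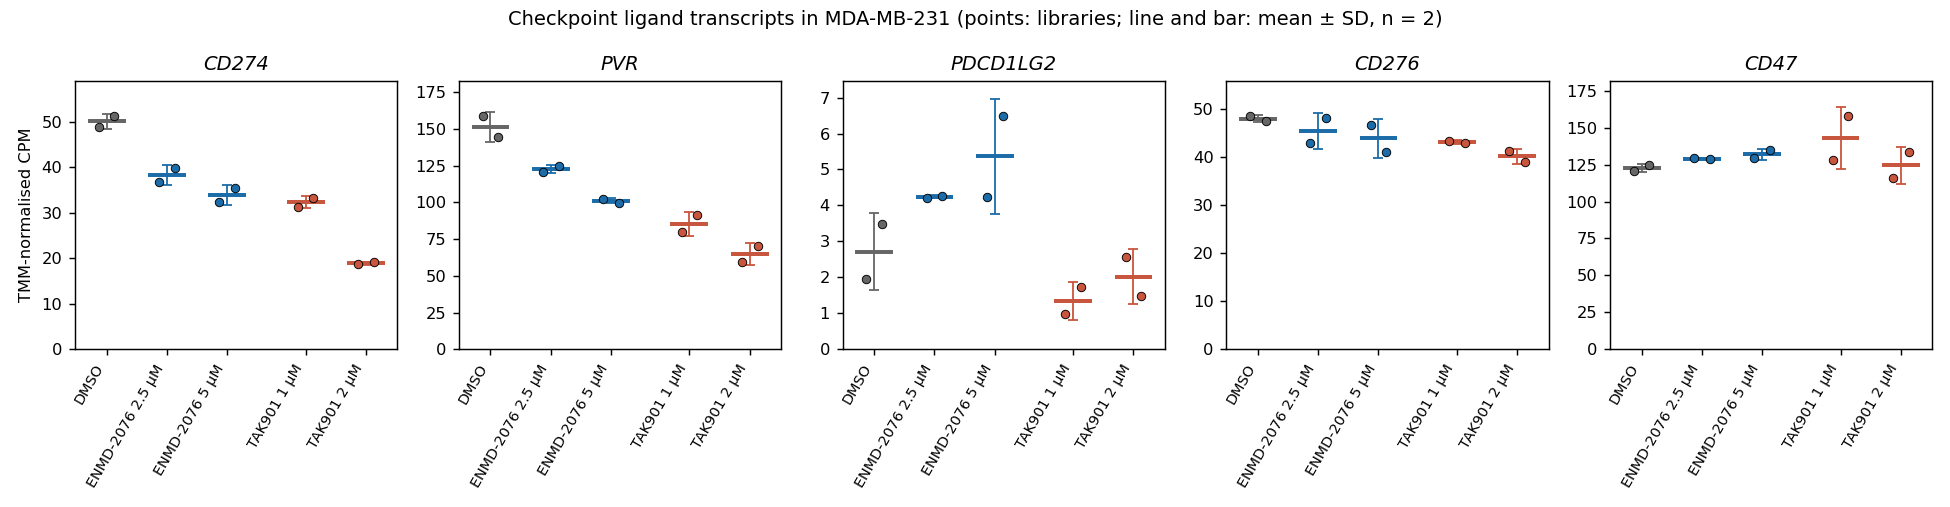
TMM-normalised CPM of the 5 checkpoint ligand genes in each MDA-MB-231 library by treatment (points), with the mean and SD of the 2 libraries (line and bar). CD274 and PVR step down with dose of either compound, to 18.7 and 19.1 CPM and to 59.4 and 69.9 CPM with 2 µM TAK901, while CD276 and CD47 stay within 39.0 to 48.5 CPM and 116 to 158 CPM.

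PVR had 158.7 and 144.1 CPM in DMSO, 120.5 and 124.7 CPM with 2.5 µM ENMD-2076, and 102.2 and 99.7 CPM with 5 µM. TAK901 left 79.7 and 91.2 CPM at 1 µM and 59.4 and 69.9 CPM at 2 µM. As for CD274, no treated library reached the lower DMSO library. PVR fell with 5 µM ENMD-2076 (log2 fold change -0.58, SE 0.12, adjusted p = 0.0146), at 1 µM TAK901 (-0.83, SE 0.12, adjusted p = 0.000791) and at 2 µM TAK901 (-1.23, SE 0.12, adjusted p = 8.38e-06). Both TAK901 falls passed in every alternative. The fall at 5 µM ENMD-2076 missed the threshold without replicate 1 or 2 of that dose (adjusted p = 0.143 and 0.174) or without DMSO 1 or 2 (0.154 and 0.0624). At 2.5 µM ENMD-2076 the log2 fold change was -0.30 (adjusted p = 0.324), and it passed without either or both 2 µM TAK901 libraries (0.0364, 0.0415 and 0.0332).

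CD276 ranged from 47.4 to 48.5 CPM in DMSO, 42.8 to 48.0 CPM with 2.5 µM and 41.0 to 46.7 CPM with 5 µM ENMD-2076. It had 43.3 and 42.8 CPM with 1 µM TAK901 and 41.2 and 39.0 CPM with 2 µM. Both 2 µM TAK901 libraries lay below both DMSO libraries, with a log2 fold change of -0.26 (95% interval -0.54 to 0.02, adjusted p = 0.150).

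CD47 had 120.9 and 124.4 CPM in DMSO, 129.3 and 129.0 CPM with 2.5 µM and 129.1 and 134.7 CPM with 5 µM ENMD-2076. With TAK901 its 2 libraries were less alike, 128.0 and 157.9 CPM at 1 µM and 115.8 and 133.5 CPM at 2 µM. Its log2 fold changes against DMSO ran from 0.023 to 0.22. At 2 µM TAK901, where CD274 and PVR had fallen most, that of CD47 was 0.023 (95% interval -0.24 to 0.29, adjusted p = 0.907).

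PDCD1LG2 was scarce, with 14 to 156 reads per library. It had 1.96 and 3.48 CPM in DMSO, 4.22 and 4.27 CPM with 2.5 µM ENMD-2076, and 4.24 and 6.49 CPM with 5 µM. TAK901 libraries held 0.982 and 1.73 CPM at 1 µM and 2.57 and 1.47 CPM at 2 µM. All 4 ENMD-2076 libraries lay above the DMSO libraries, and both 1 µM TAK901 libraries lay below them. The log2 fold changes were 0.98 at 5 µM ENMD-2076 (95% interval 0.08 to 1.88, adjusted p = 0.202) and -1.01 at 1 µM TAK901 (95% interval -2.01 to -0.01, adjusted p = 0.167), so the intervals left out 0 while neither value passed after adjustment.

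Between doses, CD274 was lower at 2 than at 1 µM TAK901 (log2 fold change -0.77, SE 0.14, adjusted p = 0.00999), the 1 of 5 members called where 3.74% of genes were. The call was lost with only these 2 groups in the fit (adjusted p = 0.303) and without TAK901 1 µM replicate 1 (0.0647) or 2 (0.125). PVR changed by -0.40 (adjusted p = 0.0797), and it passed without 2 µM TAK901 replicate 2 (-0.53, adjusted p = 0.000972), as did CD47 (-0.32, adjusted p = 0.0436). Between 5 and 2.5 µM ENMD-2076 0 of 5 members were called by edgeR, where 0.0135% of genes were, and DESeq2 called 0. The 1 with an unadjusted p under 0.05 was PVR, and the share of all genes at that threshold was not taken. PVR changed by -0.28 (adjusted p = 0.892) and passed with only these 2 groups in the fit (0.00560). Fits with only 2 groups called 707 genes in all between ENMD-2076 doses and 0 between TAK901 doses. The main fit called 2 and 555.

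Of 13102 genes with a mean of at least 1 CPM, the pattern of CD274 over the 10 libraries was followed most closely by ENSG00000104824.12 (Pearson r = 0.993) and ENSG00000114648.7 (0.992). Among the members r was 0.949 for PVR, 0.788 for CD276, 0.324 for PDCD1LG2 and 0.027 for CD47. These values describe libraries that share treatments, scaling and groups, and carry no test. Other human genes of the pathways were not analysed here.

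In the libraries labelled 4T1, Cd274 rose with ENMD-2076 at both doses, Pvr fell at both, and Cd47 and Cd276 rose at 1.25 µM, with Cd47 then falling to 26.1% of DMSO at 2.5 µM. With TAK901 the 1 call was a small fall of Cd276 at 2 µM. With 15375 genes tested, 4 of the 4 testable members were called at 1.25 µM ENMD-2076, where 45.9% of all genes were, and 3 of 4 at 2.5 µM, where 70.3% were. With TAK901 0 of 4 were called at 1 µM, where 9.14% of genes were; none had an unadjusted p under 0.05, and DESeq2 called 0. At 2 µM 1 of 4 was called, against 14.9% of genes.

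Pdcd1lg2 had 0 reads in 11 of the 12 libraries and 1 read in TAK901 1 µM replicate 2, too few to test. A count of 0 allows up to 3 reads, or 0.0972 to 0.801 CPM depending on the library, for counting error only.

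Cd274 was itself scarce, with 14 to 102 reads per library, the lowest being the 21 and 14 reads of the 2 µM TAK901 libraries. In set 1 it had 2.00 and 1.65 CPM in DMSO 1 and 2, 3.09 and 3.22 CPM with 1.25 µM ENMD-2076, and 5.18 and 4.69 CPM with 2.5 µM. The 3 groups lay apart without overlap, in order of dose. Cd274 rose 1.73-fold at 1.25 µM (log2 fold change 0.79 with an SE of 0.30, adjusted p = 0.0317) and 2.70-fold at 2.5 µM (1.43, SE 0.30, adjusted p = 9.38e-05). The rise at 2.5 µM passed in all 20 alternatives, with log2 fold changes from 1.07 to 1.59. In set 2 Cd274 had 3.53 and 3.57 CPM in DMSO 3 and 4, 3.57 and 3.48 CPM with 1 µM TAK901, and 3.17 and 3.34 CPM with 2 µM. The log2 fold changes with TAK901 were -0.013 (95% interval -0.55 to 0.53) and -0.13 (95% interval -0.82 to 0.56).

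The rise at 1.25 µM missed the threshold with DESeq2 (adjusted p = 0.0791), with only the 2 groups in the fit (0.134), across set 1 alone (0.122), and without ENMD-2076 1.25 µM replicate 2 (0.106), DMSO 2 (0.139), DMSO 3 (0.0537), DMSO 4 (0.0533) or TAK901 1 µM replicate 1 (0.0521) or 2 (0.0543).

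**Figure D2:**
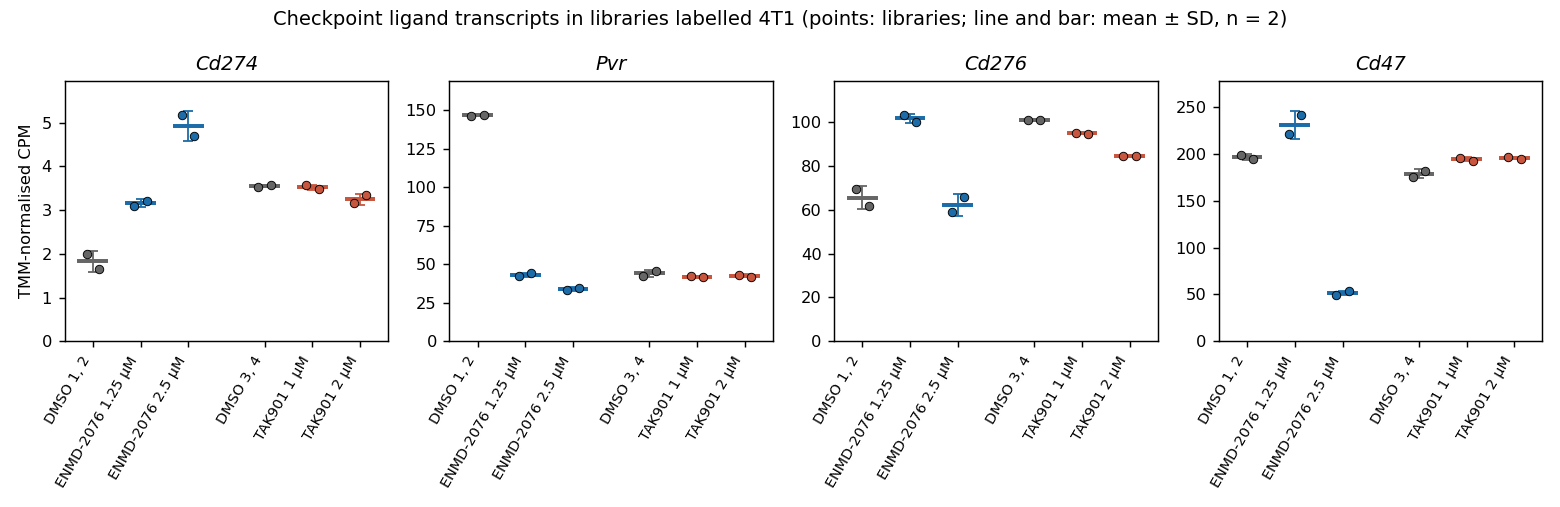
TMM-normalised CPM of Cd274, Pvr, Cd276 and Cd47 in each library labelled 4T1 by treatment (points), with the mean and SD of the 2 libraries (line and bar); the gap parts set 1 from set 2. Cd274 steps up with ENMD-2076 to 5.18 and 4.69 CPM. Pvr drops at the lower dose to 42.2 and 44.2 CPM, and Cd47 drops at the higher dose to 49.6 and 53.3 CPM. With TAK901 Cd274, Pvr and Cd47 stay near DMSO 3 and 4, while Cd276 goes from 100.9 and 101.1 CPM to 84.6 and 84.7 CPM at 2 µM.

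Pvr showed the steepest fall of the members. It had 146.4 and 146.8 CPM in DMSO 1 and 2, 42.2 and 44.2 CPM with 1.25 µM ENMD-2076, and 33.0 and 34.6 CPM with 2.5 µM. Most of the fall was present at the lower dose (log2 fold change -1.76, SE 0.077, adjusted p = 1.39e-18), and at 2.5 µM it was -2.12 (SE 0.082, adjusted p = 2.85e-20). In set 2 Pvr had 42.6 and 45.7 CPM in DMSO 3 and 4, 42.2 and 41.8 CPM with 1 µM TAK901, and 43.1 and 42.0 CPM with 2 µM. The set 2 libraries overlapped those with 1.25 µM ENMD-2076 whatever their treatment. The TAK901 log2 fold changes of Pvr were -0.072 and -0.050 (95% intervals -0.23 to 0.09 and -0.24 to 0.14).

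Cd47 turned with the dose. It had 199.0 and 194.5 CPM in DMSO 1 and 2, 220.6 and 241.4 CPM with 1.25 µM ENMD-2076, and 49.6 and 53.3 CPM with 2.5 µM. The 3 groups did not overlap. Cd47 rose by 0.23 on the log2 scale at 1.25 µM (SE 0.060, adjusted p = 0.00172) and fell at 2.5 µM (log2 fold change -1.94 with an SE of 0.069, adjusted p = 3.53e-21). The rise missed the threshold without ENMD-2076 1.25 µM replicate 2 (adjusted p = 0.0618). In set 2 Cd47 had 175.1 and 182.0 CPM in DMSO 3 and 4, 195.8 and 192.5 CPM with 1 µM TAK901, and 196.6 and 194.8 CPM with 2 µM. Both doses lay above both DMSO libraries, but the log2 fold changes of 0.12 and 0.13 did not pass (adjusted p = 0.255 and 0.193); that at 1 µM passed with only the 2 groups in the fit (0.0452).

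Cd276 had 69.4 and 61.9 CPM in DMSO 1 and 2, 103.4 and 100.3 CPM with 1.25 µM ENMD-2076, and 58.9 and 65.7 CPM with 2.5 µM. It rose at 1.25 µM (log2 fold change 0.63 with an SE of 0.073, adjusted p = 1.44e-08), and at 2.5 µM its libraries overlapped those of DMSO (-0.082, SE 0.078, adjusted p = 0.360). In set 2 it had 100.9 and 101.1 CPM in DMSO 3 and 4, 95.1 and 94.8 CPM with 1 µM TAK901, and 84.6 and 84.7 CPM with 2 µM. The 3 groups of set 2 did not overlap, and at 2 µM Cd276 fell to 83.8% of DMSO 3 and 4 in the fit (log2 fold change -0.26, SE 0.081, adjusted p = 0.0290). It missed the threshold with RLE scaling (adjusted p = 0.0611), total-count scaling (0.115), DESeq2 (0.0847) and without DMSO 3 (0.120), DMSO 4 (0.133) or TAK901 2 µM replicate 1 (0.188) or 2 (0.114).

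Between 2.5 and 1.25 µM ENMD-2076 all 4 tested members were called, where 73.3% of genes were. Cd47 differed most (log2 fold change -2.17, SE 0.068, adjusted p = 1.08e-22), Cd276 was lower at the higher dose (-0.71, SE 0.075, adjusted p = 6.29e-10), as was Pvr (-0.36, SE 0.085, adjusted p = 0.000378), and Cd274 was higher (0.64, SE 0.28, adjusted p = 0.0372). The value of Pvr missed the threshold with DESeq2 (adjusted p = 0.0598). That of Cd274 missed it with the replicate number as a block (adjusted p = 0.0535), with total-count scaling (0.393), with only the 2 groups (0.0965), across set 1 alone (0.0886) and without 2.5 µM replicate 1 (0.109), 1.25 µM replicate 1 (0.0784) or 1.25 µM replicate 2 (0.0576). Between 2 and 1 µM TAK901 0 of 4 members were called by edgeR, where 0.0715% of genes were; DESeq2 called 0, and Cd276 had an unadjusted p of 0.0497 (log2 fold change -0.17, adjusted p = 0.641).

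Scaling touched the 2.5 µM ENMD-2076 values. TMM factors of that pair were 0.766 and 0.784, and with total-count scaling the median of all genes lay at -0.37 on the log2 scale against DMSO 1 and 2. Relative to total counts the log2 fold changes were 1.07 for Cd274, -2.48 for Pvr, -2.30 for Cd47 and -0.44 for Cd276, which then passed (adjusted p = 1.32e-05).

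**Figure D3:**
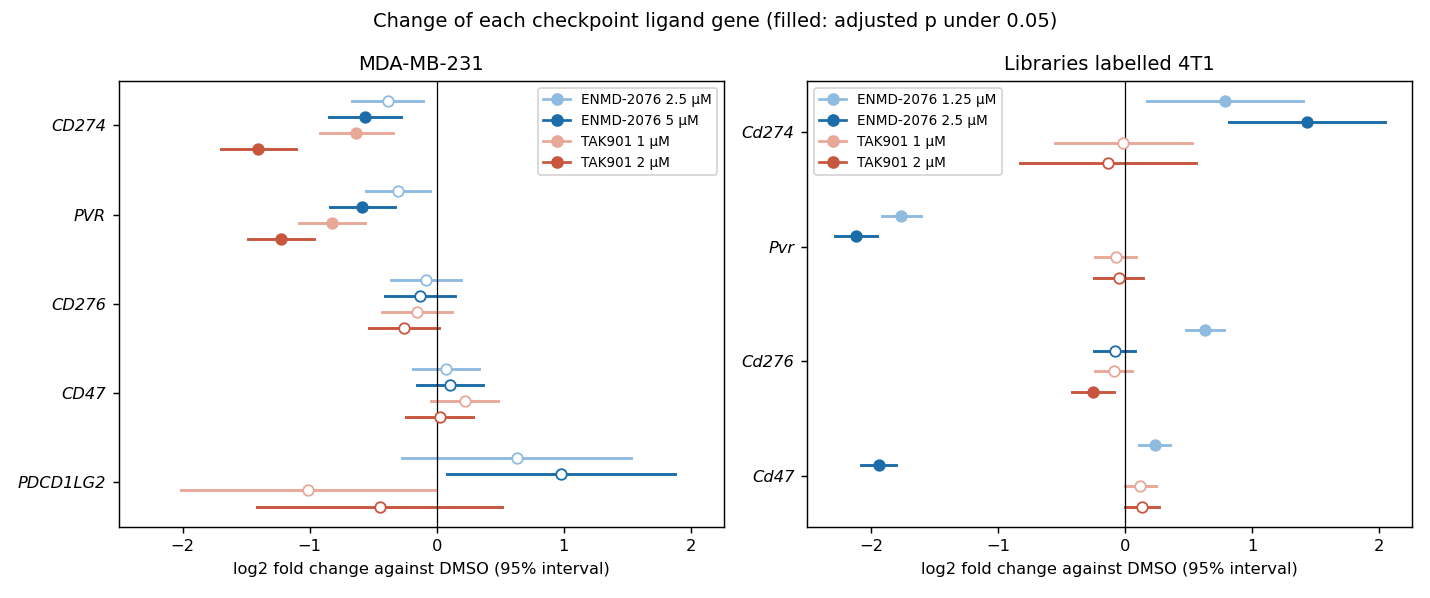
Log2 fold change of each checkpoint ligand gene against DMSO, with its 95% interval, in MDA-MB-231 (left) and in the libraries labelled 4T1 (right); filled points have an adjusted p under 0.05. CD274 and PVR lie left of 0 for both compounds in MDA-MB-231, down to -1.40 and -1.23, whereas Cd274 lies at 0.79 and 1.43 with ENMD-2076 and near 0 with TAK901 in the mouse libraries.

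The 2 DMSO pairs labelled 4T1 differed in these genes without any compound. Cd274 had 3.53 and 3.57 CPM in DMSO 3 and 4, against 2.00 and 1.65 CPM in DMSO 1 and 2 (log2 fold change 0.95, adjusted p = 0.00518). Pvr was lower in DMSO 3 and 4 (-1.73, adjusted p = 7.35e-19), Cd276 was higher (0.62, adjusted p = 8.15e-09) and Cd47 was slightly lower (-0.14, adjusted p = 0.0414). All 4 tested members were called, where 67.3% of genes were. The call of Cd47 was lost with RLE (adjusted p = 0.131) or total-count scaling (0.646), with DESeq2 (0.168), with no filter on low counts (0.131) and without any 1 library other than the 1.25 µM ENMD-2076 pair (0.0526 to 0.260). Set and compound therefore cannot be told apart in any contrast of ENMD-2076 with TAK901, and none was made.

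Levels of the mouse genes were also taken per kilobase of merged exon, as a rough guide between genes. Exon lengths were from GENCODE M21, while the counts carried earlier versions of Cd276, Pvr and Cd47, so the counted lengths may differ. Close values, such as those of Cd47 and Cd276 in DMSO 3 and 4, therefore cannot be ranked. Cd47 was at 31.7 and 31.0 CPM per kilobase in DMSO 1 and 2, Pvr at 23.9 and 24.0, Cd276 at 19.0 and 16.9 and Cd274 at 0.552 and 0.456. In DMSO 3 and 4 Cd47 was at 27.9 and 29.0 CPM per kilobase, Cd276 at 27.6 in both, Pvr at 6.95 and 7.47 and Cd274 at 0.974 and 0.987. With 2.5 µM ENMD-2076 Cd276 stood first at 16.1 and 17.97 CPM per kilobase, Cd47 at 7.91 and 8.49, Pvr at 5.39 and 5.65 and Cd274 at 1.43 and 1.29. Cd274 was thus the least abundant of the tested members in each of these groups.

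The genes around Cd274 were read in the same libraries. Within 200000 bases, Jak2, the kinase of the interferon-gamma receptor, rose with 1.25 µM ENMD-2076 (log2 fold change 0.99, adjusted p = 5.52e-15) and fell with 2.5 µM (-0.69, adjusted p = 6.00e-11). Plgrkt, whose start faces that of Cd274, rose by 0.52 and then fell (-0.74 at 2.5 µM), and Ric1 fell at 2.5 µM (-1.37). Of the 5 other genes tested there, which also include Insl6 and the antisense gene A930007I19Rik, all 5 fell at 2.5 µM, while Cd274 rose. Over all genes tested, 37.1% fell and 33.2% rose at that dose.

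Other genes that act on these ligands or are related to them were counted in the libraries labelled 4T1. Of all genes tested 22.6% rose and 23.2% fell with 1.25 µM ENMD-2076, and 33.2% rose and 37.1% fell with 2.5 µM. With TAK901 3.97% rose and 5.17% fell at 1 µM, and 5.63% rose and 9.28% fell at 2 µM. Of 12 genes of the route from interferon-gamma to PD-L1, 8 rose and 1 fell with 1.25 µM ENMD-2076 (median log2 fold change 0.55; over all genes 0), and 3 rose and 8 fell with 2.5 µM (-0.42; over all genes -0.016). Irf1 rose at both doses (1.32, adjusted p = 2.05e-13, and 0.52, adjusted p = 2.16e-05). Socs1, a feedback inhibitor of JAK kinases, had 3.78 and 3.71 CPM in DMSO 1 and 2. It fell to 0.756 and 0.838 CPM at 1.25 µM (log2 fold change -2.20) and to 0.631 and 0.265 CPM at 2.5 µM (-2.96). Irf2 also fell at 2.5 µM (-1.12). With TAK901 4 of the 12 rose at 1 µM and 5 at 2 µM, with medians of 0.15 and 0.26. Ifngr2, a chain of the interferon-gamma receptor, rose most (0.38 and 0.60), beside a Cd274 that did not pass.

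Of 20 other checkpoint ligands 12 could be tested. The list holds ligands that activate T cells as well as ones that damp them, so its counts give no single direction of effect. With 1.25 µM ENMD-2076 7 rose and 2 fell, and with 2.5 µM 8 fell. Their median log2 fold changes were 0.93 and -0.69, leaving out Ceacam1, which was at or under 3 reads there. Vsir, which encodes VISTA, had 0.379 and 1.68 CPM with 2.5 µM, against 12.81 and 13.03 CPM in DMSO 1 and 2, and Tnfrsf14, the ligand of BTLA, had 0.0631 and 0.177 CPM, against 1.78 and 0.295 CPM. Vtcn1, which encodes B7-H4, had 0.324 and 0.0589 CPM in DMSO 1 and 2, 1.10 and 1.13 CPM with 1.25 µM ENMD-2076, and no reads with 2.5 µM. With TAK901 2 rose and 1 fell at 1 µM, and 3 rose and 1 fell at 2 µM, among them Vsir (1.17 at 2 µM) and H2-T23, the ligand of the NK receptor NKG2A (0.61 and 0.95).

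**Figure D4:**
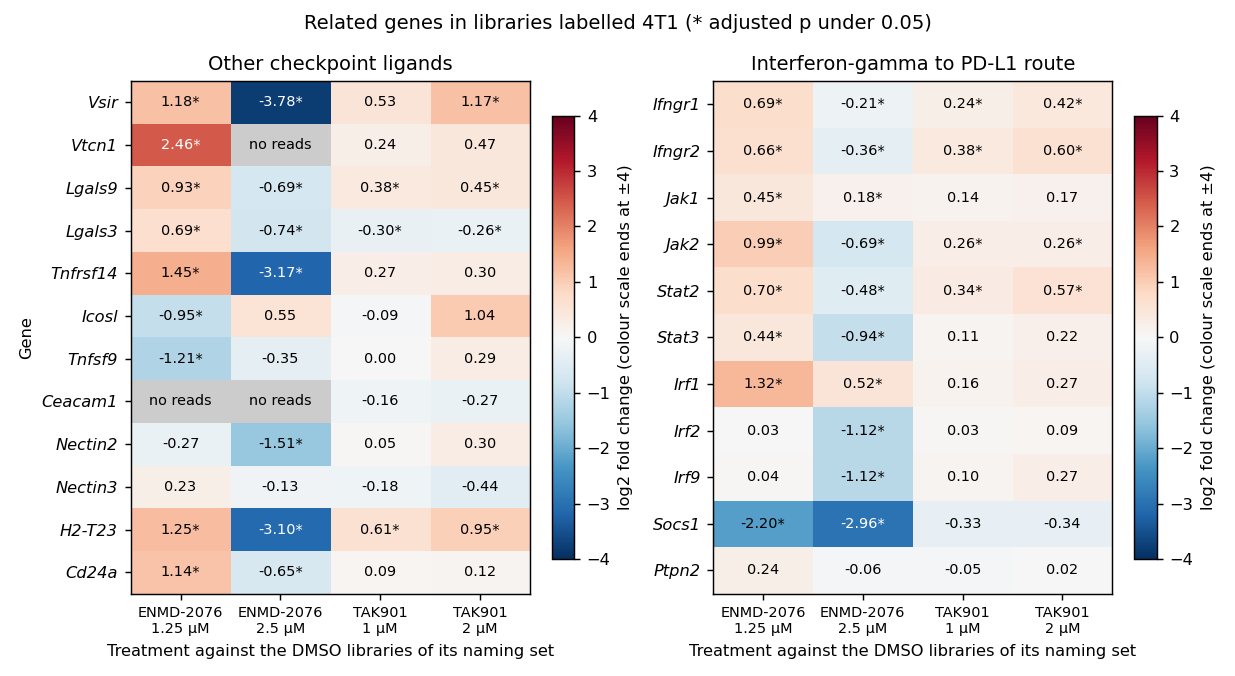
Log2 fold change against the DMSO libraries of the same set for other checkpoint ligands (left) and for the route from interferon-gamma to PD-L1 (right), with an asterisk at an adjusted p under 0.05; grey cells had no reads in the treated or the DMSO pair, and the right panel shows 11 genes of that list. Vsir and Irf1 rise at 1.25 µM ENMD-2076, by 1.18 and 1.32, and at 2.5 µM Vsir lies at -3.78 and Irf1 at 0.52, while TAK901 columns stay between -0.44 and 1.17.

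Of 16 genes that act on PD-L1 protein, 5 rose and 2 fell with 1.25 µM ENMD-2076 and 7 rose and 7 fell with 2.5 µM (medians 0.13 and 0.064). Cmtm6, which keeps PD-L1 from being degraded, was at a log2 fold change of 0.15 at 1.25 µM (adjusted p = 0.135) and fell at 2.5 µM (-0.76). B3gnt3, a glycosyltransferase of PD-L1, fell most at 2.5 µM (-2.08). With TAK901 1 rose and 3 fell at 1 µM and 2 rose and 4 fell at 2 µM. Of 8 other transcription factors reported to act on the PD-L1 gene, 3 rose and 3 fell at 1.25 µM (median 0.045) and 2 rose and 6 fell at 2.5 µM (-0.30), where Myc fell (-2.69). With TAK901 2 of these rose at 1 µM, and 2 rose and 1 fell at 2 µM.

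On the CD47 side, 5 genes were listed. Thbs1, whose product thrombospondin binds CD47, had 363 and 390 CPM in DMSO 1 and 2, 1725 and 1724 CPM with 1.25 µM ENMD-2076, and 86.6 and 95.2 CPM with 2.5 µM. It rose and then fell (log2 fold changes 2.19 and -2.06) and so turned with the dose as Cd47 did. Calr, which encodes the phagocytosis signal calreticulin, rose at both doses (1.11 and 1.95), and Lrp1, its receptor, fell (-0.19 and -2.77). Qpctl, which modifies CD47 for SIRPα binding, was at -0.33 with 1.25 µM (adjusted p = 0.166) and rose by 0.46 at 2.5 µM (adjusted p = 0.0303). With TAK901 Thbs1 was the 1 gene of the 5 to pass, with rises of 0.80 and 1.10.

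Of 5 nectin family and related genes, Nectin4 rose at both ENMD-2076 doses (2.52 and 3.60) and Cadm1 fell (-3.92 and -2.63). Cadm1 was scarce, with 2.27 and 1.89 CPM in DMSO 1 and 2. It had 0 and 0.193 CPM with 1.25 µM and 0.0631 and 0.708 CPM with 2.5 µM. Nectin2, which shares receptors with PVR, was at -0.27 at 1.25 µM (adjusted p = 0.0773) and fell at 2.5 µM (-1.51). In all, 1 rose and 2 fell at 1.25 µM, and 1 rose and 3 fell at 2.5 µM. With TAK901 their median log2 fold changes were -0.051 and -0.17. Of 12 receptors of these ligands 6 could be tested, and 1 rose with each ENMD-2076 dose while 3 fell at 1.25 µM and 1 at 2.5 µM. With TAK901 Havcr2, which encodes TIM-3, fell at 2 µM (-1.01). Tigit, a receptor of PVR, fell with ENMD-2076 at 2.5 µM to 8.27 and 7.61 CPM, against 26.9 and 24.2 CPM in DMSO 1 and 2.

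Markers of other cell types also differed between the set 1 groups. The 10 haematopoietic markers summed to 11.4 and 13.3 CPM in DMSO 1 and 2, 23.7 and 27.7 CPM with 1.25 µM ENMD-2076, and 8.15 and 7.70 CPM with 2.5 µM. Csf1r stood at 8.94 and 12.9 CPM with 1.25 µM, against 0.108 and 0.825 CPM in DMSO 1 and 2, while Ptprc, Cd3e, Cd8a and Adgre1 had no reads there. The 4 endothelial markers summed to 0.649 and 0.530 CPM in DMSO 1 and 2 and to 3.47 and 5.04 CPM with 2.5 µM, where the 3 tested genes rose and Cdh5 had no reads. Their part in the changes of the ligands was not tested.

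Over the 6 libraries of set 1 and 12048 genes, the pattern of Cd274 was followed most closely by G3bp2 (Pearson r = 0.999), Sesn1 (0.999) and Pdcd6ip (0.998). Among the members r was -0.937 for Pvr, -0.779 for Cd47 and -0.048 for Cd276. Over the 6 libraries of set 2 and 12823 genes the closest were Phex (0.999), Nin (0.998) and Pptc7 (0.998), over a range of 3.17 to 3.57 CPM of Cd274. These values describe the pattern alone.

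By the treatment labels, MDA-MB-231 and mouse set 1 shared ENMD-2076 at 2.5 µM. MDA-MB-231 and mouse set 2 shared TAK901 at 1 and 2 µM. For mouse set 1 the text on cell growth and the column headers give other doses of ENMD-2076, so equal doses are not certain. At 2.5 µM ENMD-2076 the log2 fold change was 1.43 for Cd274 in set 1 and -0.39 for CD274 in MDA-MB-231, and -1.94 for Cd47 and 0.074 for CD47. For Pvr and PVR it was -2.12 and -0.30, and for Cd276 and CD276 -0.082 and -0.081. At 2 µM TAK901 Cd274 in set 2 was at -0.13 and CD274 at -1.40, and Pvr at -0.050 and PVR at -1.23. Cd276 and CD276 were at -0.26 each. The human and mouse libraries were counted on separate gene sets, and the differences between them were not tested.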

How the data were processed

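RNA-seq reads were counted per gene by the authors, and the deposited tables hold raw read counts, one table per library. The submitters' processing notes name the builds mm10 and hg38, Bowtie and TopHat, HTSeq, FastQC 0.11.3, and DESeq2. For annotation and strand setting the entry is: not given in the sources used here. Rows that name no gene, present in set 2 tables (16.4% to 40.1% of reads not aligned, 5.51% to 7.63% in no feature), were left out. Counts of the 10 MDA-MB-231 and the 12 libraries labelled 4T1 were fitted apart with edgeR 4.0.16 (R 4.3.3): genes kept by filterByExpr, TMM scaling, all groups of a line in 1 fit, the quasi-likelihood test, and Benjamini-Hochberg adjustment over all genes tested, at a threshold of 0.05. The SE of a log2 fold change was its size over the square root of F. Of the 10 members 9 passed the filter, all but mouse Pdcd1lg2. Other scalings, no filter, DESeq2 1.42.0, narrower fits, a replicate block and leaving out libraries were tried, and fits across 1 file-naming set were added after the data were seen. Members and gene lists were chosen with earlier results of these data known. Genes named from a list were the 3 called with the largest change in a comparison, beside Jak2, Irf1, Cmtm6, Qpctl and Nectin2, and some genes of the lists are counted but not reported here by name; likeness was Pearson's r of log2(CPM + 0.5) over genes with a mean of at least 1 CPM. Mouse positions are from GENCODE M21; 37607 mouse IDs matched the name table. Depth ran from 3746588 to 30866819 counts a library, and floors for a count of 0 (3 reads) cover counting error only. The code was tested on simulated data.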

Additional observations from a re-analysis of the deposited data

Results flagged for a closer look

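At the dose labelled 2.5 µM ENMD-2076 the libraries of 2 ligands lay on opposite sides of DMSO in MDA-MB-231 and in mouse set 1. For mouse set 1 the text on cell growth and the column headers differ from this label, so equal doses are not certain. Every treated library lay above DMSO 1 and 2 for Cd274 in the mouse set and below DMSO for CD274 in MDA-MB-231, and the log2 fold change in the libraries labelled 4T1 exceeded that in MDA-MB-231 by 1.82. For Cd47 every treated mouse library lay below DMSO and for CD47 every treated MDA-MB-231 library lay above it, and the log2 fold change in the libraries labelled 4T1 minus that in MDA-MB-231 was -2.01. Neither difference was tested, and within MDA-MB-231 neither CD274 nor CD47 passed the threshold at this dose (edgeR adjusted p = 0.245 and 0.865). The share of all genes whose libraries lie apart in this way was not counted, so the 2 ligands cannot be set against it. At an adjusted p under 0.05, 70.3% of all genes were called in mouse set 1 at this dose and 0.607% in MDA-MB-231.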

How the results depend on the processing

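Over 58 member values and 1052 alternatives, 971 kept their direction and side of the threshold, 54 lost a call, 10 gained one and 17 changed sign. Of 23 called values, 13 stayed called in every alternative and 0 of their 435 alternatives changed sign. In MDA-MB-231 the number of members called (edgeR) at 2.5 µM ENMD-2076 was 1 with only the 2 groups and 2 without both 2 µM TAK901 libraries, and 0 to 1 with 1 library left out; leaving out 1 library gave 0 to 2 at 5 µM and 1 to 2 at 1 µM TAK901. Between doses it was 1 for ENMD-2076 and 0 for TAK901 with only the 2 groups, and 0 to 3 for TAK901 with 1 library left out. In the libraries labelled 4T1 it was 2 to 4 at 1.25 µM ENMD-2076 with 1 library left out, 1 at 1 µM TAK901 with only the 2 groups, and at 2 µM TAK901 0 with RLE, total-count scaling or DESeq2 and 0 to 1 with 1 library left out. With only the 2 groups, 813 genes in all were called at 2.5 µM ENMD-2076 in MDA-MB-231, against 90 in the main fit. Between doses the calls over all genes were 707 for ENMD-2076 and 0 for TAK901, against 2 and 555 in the main fit. The whole list of calls thus moved in these fits along with the members. For the other alternatives the calls over all genes are not reported here. The cause was not tested.

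Values that changed sign were near 0 or from few reads. With 1 library left out, log2 fold changes between ENMD-2076 doses in MDA-MB-231 ran from -0.15 to 0.036 for CD276, with 0.027 without replicate 2 at 2.5 µM, from -0.0059 to 0.057 for CD47 and from -0.0087 to 0.61 for PDCD1LG2. At 2 µM TAK901 they ran from -0.096 to 0.12 for CD47, with -0.0094 without DMSO 1, and from -0.90 to 0.039 for PDCD1LG2. In the libraries labelled 4T1 Cd276 at 2.5 µM ENMD-2076 ran from -0.13 to 0.024, and was 0.078 with RLE or DESeq2 and 0.0033 across set 1 alone. Cd274 at 1 µM TAK901 ran from -0.033 to 0.0096 and was 0.0098 with total-count scaling. Pvr at 2 µM TAK901 ran from -0.10 to 0.00046 and was 0.0061 with total-count scaling. Cd47 between TAK901 doses ran from -0.0051 to 0.024 and was -0.0040 with no filter. Total-count scaling moved the median of all genes to -0.37 at 2.5 µM ENMD-2076, -0.38 between ENMD-2076 doses and 0.19 between DMSO pairs.

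With the replicate number as a block, Cd274 between ENMD-2076 doses was at 0.63 and missed the threshold (adjusted p = 0.0535), and the block changed no other call. Same-numbered libraries did not deviate together (correlations -0.021 to 0.11 in MDA-MB-231, -0.013 to 0.022 in the libraries labelled 4T1). No paired analysis was possible because of unshared replicate numbers in 2 kinds of contrast, TAK901 against DMSO 3 and 4 and the DMSO pairs with each other; all other contrasts had the block. Few reads limited mouse Pdcd1lg2, which could not be tested, and Cd274 and PDCD1LG2, with 14 reads in their lowest libraries. Pdcd1lg2 had 0 reads in the deepest library too, that of 1.25 µM ENMD-2076 replicate 2 with 30866819 counts.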
